A study of Rattus norvegicus with 38 samples.

Results

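The left ventricle was compared between failing and healthy rat hearts in 6 RNA sequencing libraries, which are all the left ventricles among the 38 libraries of the series and were chosen by the chamber and health state in their labels. The failing group held 4 libraries (LV_0409, LV_0506, LV_0507 and LV_0508) and the healthy group held 2 (LV_1001 and LV_1002). All came from male Sprague-Dawley rats aged 10 weeks. The failing hearts belong to a model in which a constriction was placed on the ascending aorta of pups at 1 week of age, and left ventricular hypertrophy followed. The healthy libraries carry the same protocol text, so the labels leave unsaid whether those rats had surgery. No code is shared by failing and healthy left ventricles, so a batch that followed the codes and the effect of health state cannot be told apart. Each library came from about 5 mg of tissue. The labels do not say whether libraries of a group came from separate animals, so p-values measure the spread between these libraries.

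The left ventricle pumps blood into the aorta, and a constriction there raises the pressure against which it works. As background, a ventricle under such load thickens as its muscle cells enlarge, and it typically returns to genes of fetal heart muscle and lays down connective tissue. The genes behind these processes could not be looked up by name here. The files carry Ensembl gene IDs without names, and the reference table, of assembly GRCr8, matched none of them. Gene groups are therefore described by their values, and 4 genes are given by ID. For the same reason the label of left ventricle could not be checked against marker genes. In pieces of tissue, fewer cells of a type and less RNA per cell cannot be told apart.

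Each failing left ventricle differed from the healthy pair to its own extent, and no single gene passed the test over all 6 libraries with edgeR. Library totals were 18788355 to 22037788 estimated counts in failing and 19785114 to 22306269 in healthy left ventricles. Levels are given as CPM, counts scaled to a common library size, with library sizes adjusted by the trimmed mean of M values (TMM), over 13670 genes that passed a filter on low counts. The root mean square difference in log2 CPM between failing and healthy libraries was 0.649 and 0.680 for LV_0409, 0.788 and 0.824 for LV_0506, 1.59 and 1.57 for LV_0507, and 0.964 and 1.05 for LV_0508. Among failing libraries, the 3 pairs without LV_0507 lay at 0.722 to 0.767 and the 3 pairs with it at 1.18 to 1.51. The healthy pair lay at 0.461. LV_0409 thus lay nearer to both healthy libraries than to any other failing one, and LV_0507 lay far from all 5 others. The median standard deviation of a gene was 0.48 log2 units in failing (n = 4), 0.32 in failing without LV_0507 (n = 3) and 0.13 in healthy left ventricles (n = 2).

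**Figure D1:**
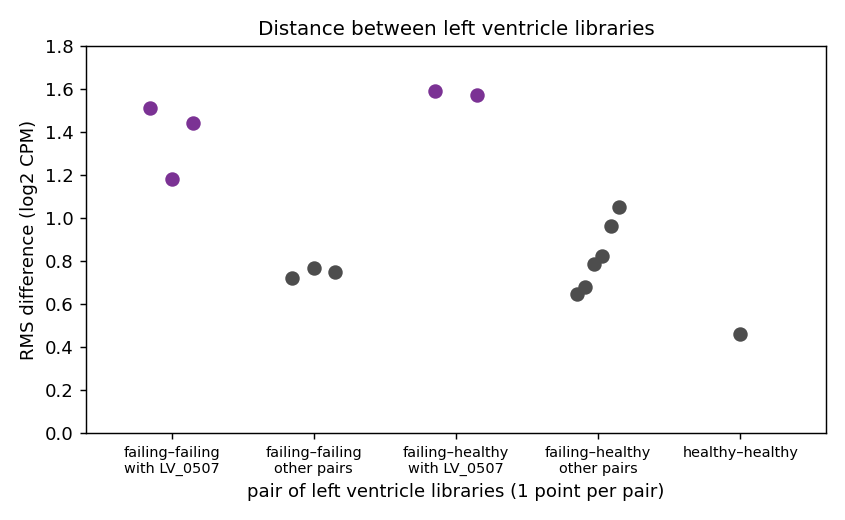
Root mean square difference in log2 CPM (vertical axis) for each of the 15 pairs of left ventricle libraries, 1 point per pair, grouped by the health state of the pair and by whether it holds LV_0507 (purple). Pairs with LV_0507 lie at 1.18 to 1.59, the healthy pair at 0.461.

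LV_0507 also differed in composition. Its 10 most abundant genes took 61.3% of its counts, against 33.4%, 46.6% and 28.1% in LV_0409, LV_0506 and LV_0508 and 36.5% and 36% in LV_1001 and LV_1002. At least 50% of all counts came from 6 genes in LV_0507 and from 15 in LV_0506, but from 80 and 174 in LV_0409 and LV_0508 and from 59 and 55 in the healthy libraries. Of the 10 most abundant genes, 8 were the same in all 6 libraries. Genes at 1 TPM, the length-adjusted level, or more numbered 8236 in LV_0507, 10167 to 11822 in the other failing libraries, and 11213 and 10899 in the healthy ones. At an equal depth of 7635809 counts outside the 10 genes most abundant over the 6 libraries, 15046 genes had a count in LV_0507, 15555 to 16028 in the other failing libraries, and 15735 and 15445 in the healthy ones. In LV_0507, 46 genes were listed at 0 that had at least 1 TPM in each of the 5 other libraries, against 0 to 4 such genes for any other library. Other regions of the same code did not lie as far out. The mean distance of these libraries to the other failing libraries was 1.38 in the left ventricle, 0.671 in the left atrium, 0.536 in the right atrium, 0.547 in the inferior sinoatrial node and 0.586 in the superior node. Only in the left atrium was it also the highest of the 4.

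Genes outside the range of the healthy pair were then counted for each failing library. A gene counted as above when it was at least 2-fold over the higher healthy library, and as below when it was at least 2-fold under the lower one. LV_0409 had 436 genes above and 304 below. LV_0506 had 664 above and 762 below. LV_0507 had 2119 above (15.5% of the 13670) and 2851 below (20.9%). LV_0508 had 1309 above and 828 below. More genes lay below than above in LV_0506 and LV_0507, and more lay above than below in LV_0409 and LV_0508. On log2(TPM + 1) without further scaling, LV_0409 had 189 above and 59 below, LV_0506 had 94 and 1156, LV_0507 had 173 and 5548, and LV_0508 had 1190 and 206.

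**Figure D2:**
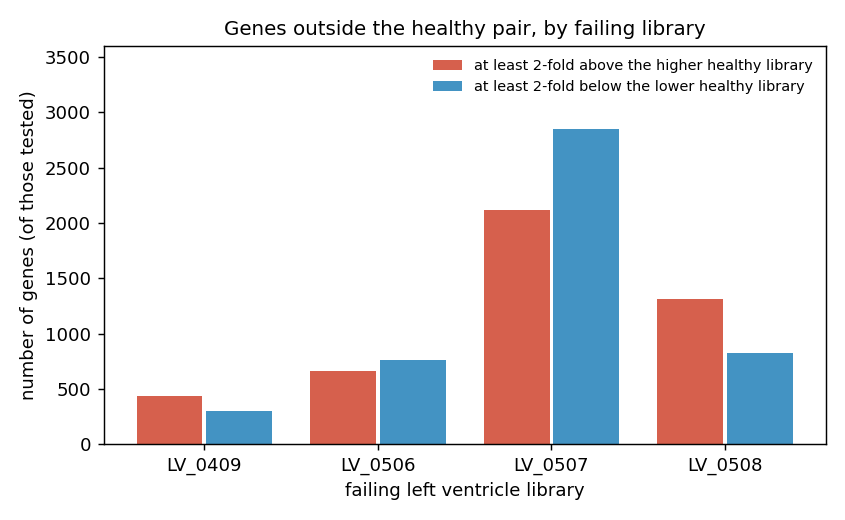
Number of genes (vertical axis, of 13670 tested) at least 2-fold above the higher or at least 2-fold below the lower healthy left ventricle, for each failing library. LV_0507 has 2119 and 2851 such genes, LV_0409 has 436 and 304.

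Each failing library was also set against the mean of the 3 other failing ones. LV_0507 had 1613 genes at least 2-fold higher and 2768 at least 2-fold lower. The counts were 1468 higher and 936 lower in LV_0409, 430 and 436 in LV_0506, and 1531 and 570 in LV_0508, for which the mean of the others included LV_0507. LV_0409 and LV_0508 came close to LV_0507 in higher genes, but their reference held LV_0507 with its many lower genes. These counts are therefore not read as a ranking of the libraries. Against the healthy pair LV_0507 had the most genes above, 2119, with 436 in LV_0409, 664 in LV_0506 and 1309 in LV_0508. Among 7902 genes with a mean log2 CPM of at least 3, LV_0507 had 785 higher and 1128 lower. The gene of these furthest up had 1340 CPM in LV_0507 and 8.25, 220 and 7.83 CPM in LV_0409, LV_0506 and LV_0508, against 2.61 and 5.71 CPM in LV_1001 and LV_1002. The gene of these furthest down was listed at 0 in LV_0507 and had 26.5, 16.2 and 16.1 CPM in the same other failing libraries, against 29.4 and 31.4 CPM in the healthy ones. In both genes LV_0507 lay outside the range of all 5 other libraries.

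A smaller set was shared. All 4 failing libraries had 160 genes above the healthy pair (1.17% of the 13670) and 57 below (0.417%). LV_0507 alone had 1323 genes above and 1990 below, while LV_0409, LV_0506 and LV_0508 had 52, 65 and 478 above alone and 94, 86 and 253 below alone. A further 51 genes lay above in all failing libraries except LV_0507, and 18 lay below. The 160 genes had a median log2 difference of 2.64 between failing and healthy left ventricles and the 57 genes of -2.16, against 0.03 over all genes. These medians follow from how the genes were picked and carry no test. The 57 genes were mostly of low abundance. Their mean log2 CPM had a median of 0.16, against 2.3 for the 160 genes and 3.47 over all genes.

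The shared genes were looked up in the other regions, whose libraries did not choose them. Those regions carry the same codes for failing hearts, and the codes of LV_1001 and LV_1002 recur among their healthy libraries. In the left atrium, 123 of the 150 of the 160 genes that were tested (82%) were higher in failing hearts and 3 were lower, with edgeR adjusted p under 0.05. Over all genes of the left atrium 24.3% were called higher and 23.9% lower. In the right atrium 117 of 144 were higher (81.2%, against 24.5% of all genes) and 1 was lower. In the inferior node 97 of 147 were higher (66%, against 19.5%), and in the superior node 84 of 148 (56.8%, against 8.92%). Their median log2 difference was 1.90 in the left and 1.63 in the right atrium and 1.24 in each node part, where all genes had medians of -0.01 to 0.02. Of the 57 genes below in all 4 failing left ventricles, 38 of 47 were lower in the left atrium (80.9%, against 23.9%), and 31 of 44 in the right (70.5%, against 23%). In the node they were lower in 24 of 50 in the inferior part (48%, against 19%) and in 12 of 46 in the superior part (26.1%, against 4.56%).

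Genes outside the healthy range in LV_0507 alone were looked up in the same way. Of 1295 tested genes above in LV_0507 alone, 697 were higher in the failing left atrium (53.8%, against 24.3% of all genes), with a median log2 difference of 0.48. Of 1974 tested genes below in LV_0507 alone, 841 were lower there (42.6%, against 23.9%), with a median of -0.31. The right atrium had 52.9% of the tested genes of the first list higher (against 24.5% of all genes) and 38.5% of the second lower (against 23%). In the inferior node these shares were 36.9% higher (against 19.5%) and 31.8% lower (against 19%). In the superior node, where 13.5% of all genes were called in either direction, 12.3% were higher (against 8.92%) and 5.47% lower (against 4.56%). Whether these shares differ from those of the shared genes was not tested.

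Gene length moved with these counts. Genes were put into 5 equal groups by their relative length, and the median difference from the healthy mean was taken in each. In the shortest group it was 0.12 log2 units in LV_0409, 0.39 in LV_0506, 0.60 in LV_0507 and 0.21 in LV_0508, against -0.05 and 0.05 in the healthy libraries. In the longest group it was -0.06, -0.26, -0.43 and -0.21 in the same failing libraries, against 0.04 and -0.04 in the healthy ones. The failing libraries thus each lay beyond both healthy ones toward short genes, LV_0507 most and LV_0409 least. The healthy libraries form the reference, so their values mirror each other. LV_0409, at 0.12 and -0.06, lay little beyond LV_1002, at 0.05 and -0.04. The slope of log2 CPM on log2 length, relative to the mean of the 6 libraries, averaged -0.0602 ± 0.107 in the 4 failing libraries (SD), against 0.12 ± 0.0375 in the 2 healthy ones (SD). An exact two-sided permutation test gave p = 0.133 (0.532 adjusted over the 4 values per library tested), and 0.0667 is the smallest p this design allows. The shortest group held 43.1% of the 160 genes above in all 4 failing libraries and 40.2% of those above in LV_0507 alone, against 20% of all genes. It held 21.1% of the 57 genes below in all 4. The other regions showed the same order, with medians in the left atrium of 0.30 in the shortest and -0.26 in the longest group. In that chamber 40.3% of the shortest and 13.1% of the longest genes were called higher. With this trend removed from log2 CPM values, limma called 7 genes in the 6 left ventricles, all higher in failing hearts, and 0 with the trend left in. The part of length in the counts of genes outside the healthy range was not tested.

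**Figure D3:**
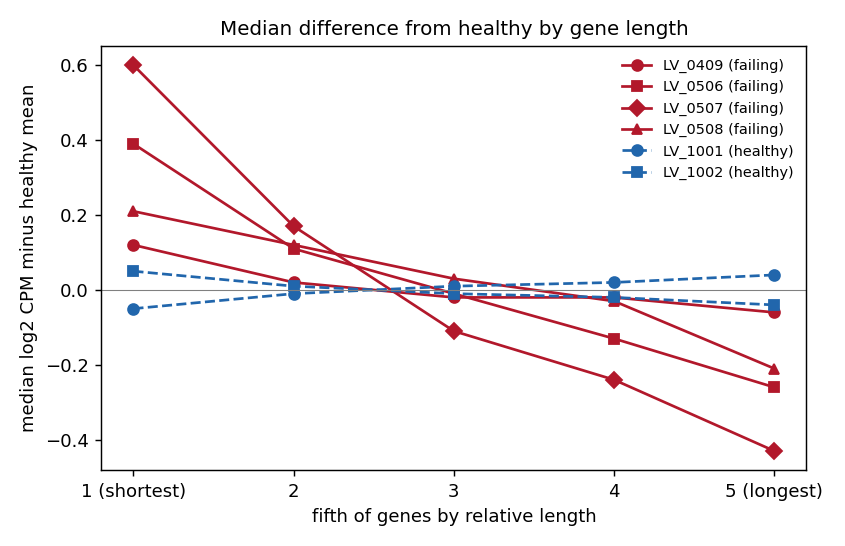
Median log2 CPM minus the mean of the healthy libraries (vertical axis) in 5 equal groups of genes by relative length (horizontal axis), 1 line per left ventricle library, failing in red and healthy in dashed blue. LV_0507 runs between 0.60 in the shortest and -0.43 in the longest group, and both healthy libraries stay between -0.05 and 0.05.

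The test across all genes with edgeR's quasi-likelihood method called 0 of 13670 genes between 4 failing and 2 healthy left ventricles (0.00%), with a smallest adjusted p of 0.126. At an unadjusted p under 0.05 there were 1510 genes (11%), 980 of them higher (7.17%) and 530 lower (3.88%) in failing hearts. In 2145 genes every failing library lay above both healthy ones (15.7%), and in 2227 every failing library lay below both (16.3%). DESeq2 called 356 genes (2.61%), 280 of them higher and 76 lower (2.05% and 0.557%). A fit of all 38 libraries, which takes the spread from every region, called 3009 of 15770 genes (19.1%), 1813 of them higher and 1196 lower (11.5% and 7.58%). The spread between libraries of a group, as biological coefficient of variation, was 0.259 in that fit, against 0.401 in the left ventricles alone. Libraries of the same code entered that fit as independent. Of the 356 genes from DESeq2, 335 were also called by the fit of 38 libraries (94.1% of the first list and 11.1% of the second). Both lists rest on the same left ventricle values.

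Without LV_0507 the estimated spread between libraries of a group was lower. The biological coefficient of variation was 0.273 without it and 0.401 with it, and the median standard error of a log2 difference was 0.27 without and 0.38 with it. Of 13594 genes tested both ways, 1510 (11.1%) changed sign, and 116 moved by more than 1 log2 unit. Differences of at least 2-fold were found in 1595 of these genes without LV_0507 and in 2158 with it, 1408 of them in both and with the same sign. Without it 12 of 13633 genes passed (0.0880%), of which 11 were higher in failing hearts (0.0807%) and 1 was lower (0.00734%). At an unadjusted p under 0.05 there were 2281 genes (16.7%), 1365 of them higher (10%) and 916 lower (6.72%), and 95 genes had an adjusted p under 0.1. Groups did not overlap in 2690 genes with failing libraries higher (19.7% of the 13670) and in 2668 with failing libraries lower (19.5%). Smaller groups separate more often by chance, so these shares are not compared with those that include LV_0507. DESeq2 then called 707 genes (5.19%), 497 higher (3.65%) and 210 lower (1.54%), among them all 12. The fit of the 37 other libraries called 2041 (13%), 1150 higher (7.30%) and 891 lower (5.65%).

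The 11 genes that rose without LV_0507 had log2 differences of 1.72 to 4.91 and edgeR adjusted p of 0.0087 to 0.038. With LV_0507 their differences were 1.57 to 5.19, with edgeR adjusted p of 0.13 to 0.44. In 10 of the 11, LV_0507 too lay above both healthy libraries. Over all genes, the failing libraries without LV_0507 lay above both healthy ones in 2690, and LV_0507 did too in 2145 of these. The count of 10 is therefore not read as a result about the 11 genes. It was the lowest failing library in 5 of them and the highest in 4. By length 3 of the 11 were in the shortest group, 4 in the next, 1 in the middle one, 2 in the fourth and 1 in the longest. All 12 were among the 47 genes that limma called once the length trend had been removed from the 5 libraries. They were also all among the 27 that limma called with the trend left in. The part of length in these calls was not tested. Leaving out either healthy library besides LV_0507 left 0 genes.

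The first gene given by ID, ENSRNOG00000011094, had 37.7, 20.4, 40.6 and 26.8 CPM in LV_0409, LV_0506, LV_0507 and LV_0508, against 1.82 and 2.01 CPM in LV_1001 and LV_1002. All failing libraries lay far above the healthy ones, and LV_0507 was the highest. The failing mean was 31.4 ± 9.43 CPM (SD, n = 4), against a healthy mean of 1.92 ± 0.137 CPM (SD, n = 2). The log2 difference was 4.03 (SE 0.40, edgeR adjusted p = 0.13), and 3.89 without LV_0507 (SE 0.33, edgeR adjusted p = 0.013). This gene was in the longest group, whose median lay below the healthy mean in every failing library. Of the other genes given by ID, ENSRNOG00000013744 and ENSRNOG00000012458 were in the next to shortest group. ENSRNOG00000014232 was in the next to longest. The part of length in their differences was not tested.

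The second, ENSRNOG00000013744, had 39.1, 43.4, 58.3 and 41.8 CPM in the failing libraries in the same order, against 6.93 and 7.54 CPM in LV_1001 and LV_1002. The failing libraries other than LV_0507 lay close together, and none came near the healthy pair. Failing libraries averaged 45.7 ± 8.62 CPM (SD, n = 4) and healthy ones 7.23 ± 0.434 CPM (SD, n = 2). The log2 difference was 2.66 (SE 0.27, edgeR adjusted p = 0.13), and 2.53 without LV_0507 (SE 0.19, edgeR adjusted p = 0.013).

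The 1 gene that fell without LV_0507, ENSRNOG00000012458, had 0.239, 0.318, 0.824 and 0.230 CPM in LV_0409, LV_0506, LV_0507 and LV_0508, against 3.60 and 4.73 CPM in LV_1001 and LV_1002. Its counts reached the filter's minimum of 10 only in the healthy libraries, so it entered the test through the group in which it was high. The failing values rest on few counts, and their order is not read as a result. In TPM they were 0.198, 0.157, 0.246 and 0.232 in the same order, against 2.97 and 3.60 in LV_1001 and LV_1002. The log2 difference was -3.45 (SE 0.58, edgeR adjusted p = 0.23), and -3.97 without LV_0507 (SE 0.41, edgeR adjusted p = 0.030). ENSRNOG00000014232 had the smallest unadjusted p among lower genes with a mean log2 CPM of at least 1, a difference of at least 2-fold and no overlap between groups. It had 6.82, 6.26, 6.96 and 5.38 CPM in the failing libraries in the same order, against 17.8 and 23.2 CPM in LV_1001 and LV_1002. Here LV_0507 did not stand apart from the other failing libraries. Its log2 difference was -1.69 (SE 0.23, edgeR adjusted p = 0.21), and -1.73 without LV_0507 (SE 0.21, edgeR adjusted p = 0.052), so this gene was not called in either fit.

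**Figure D4:**
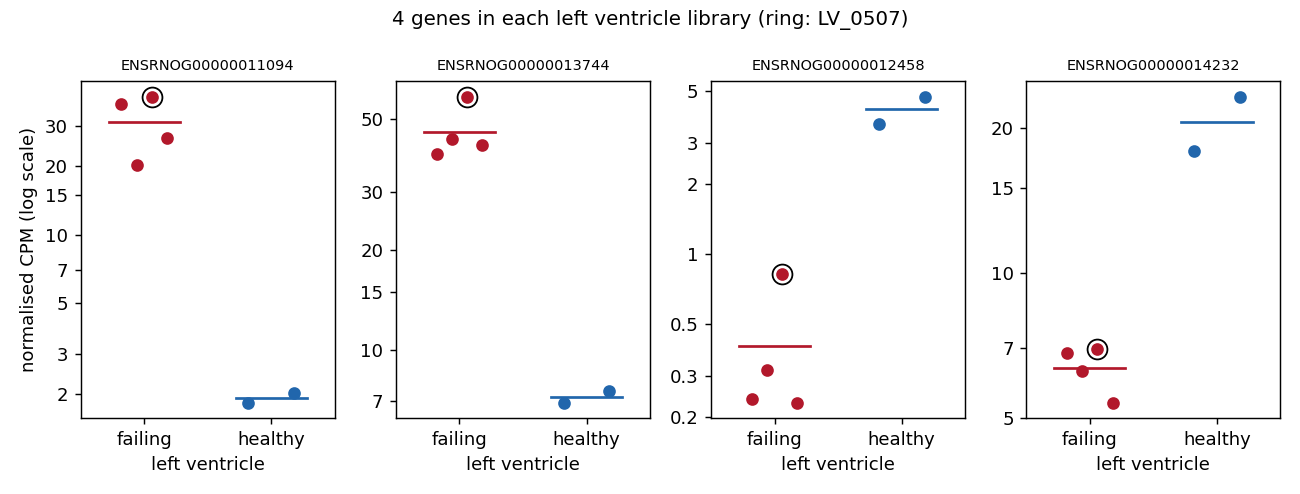
Normalised CPM (vertical axes, log scale, each with its own range) of 4 genes in failing (red, left) and healthy (blue, right) left ventricles, 1 point per library, with the group mean as a line and LV_0507 ringed. For ENSRNOG00000011094 the failing libraries lie at 20.4 to 40.6 CPM and the healthy ones at 1.82 and 2.01 CPM.

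Among the most abundant genes, 68 averaged at least 1000 TPM over the 6 libraries. Of these, 18 were higher in CPM in every failing than in every healthy library (15.7% of all genes were) and 8 were lower (16.3% of all genes). Also in CPM, LV_0507 had the highest level of 36 of the 68 and the lowest level of 8. The gene of this class with the largest log2 difference, picked after its values were seen, had 9810, 3690, 7470 and 25800 TPM in LV_0409, LV_0506, LV_0507 and LV_0508, against 456 and 500 TPM in LV_1001 and LV_1002. Its lowest failing library thus still stood several-fold above both healthy ones. Its log2 difference was 4.88 (SE 0.78, edgeR adjusted p = 0.23), and 4.66 without LV_0507 (edgeR adjusted p = 0.075).

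The 12 genes were then read in the other regions. In the left atrium, 8 of the 11 genes that rose in the left ventricle without LV_0507 also passed as higher in failing hearts (24.3% of all genes did), with log2 differences of the 11 from -0.29 to 5.60. In the right atrium 7 of 11 passed as higher (24.5% of all genes), in the inferior node 4 (19.5%) and in the superior node 7 (8.92%). The median log2 difference of the 11 genes was 3.01 in the left ventricle without LV_0507, 1.34 in the left atrium, 1.21 in the right atrium, 0.90 in the inferior node and 1.33 in the superior node. The 11 genes were picked by their left ventricle values, so the first of these medians is raised by that choice and is not compared with the others. ENSRNOG00000013744 passed in all 4 other regions, with log2 differences of 3.19 (SE 0.15) in the left atrium, 2.85 (SE 0.21) in the right, 1.75 (SE 0.18) in the inferior node and 1.78 (SE 0.20) in the superior node. ENSRNOG00000012458 passed in none of them, and its log2 difference was 1.15 for the left atrium (SE 0.63, edgeR adjusted p = 0.16) and -0.24 for the right (SE 0.49, edgeR adjusted p = 0.70).

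**Figure D5:**
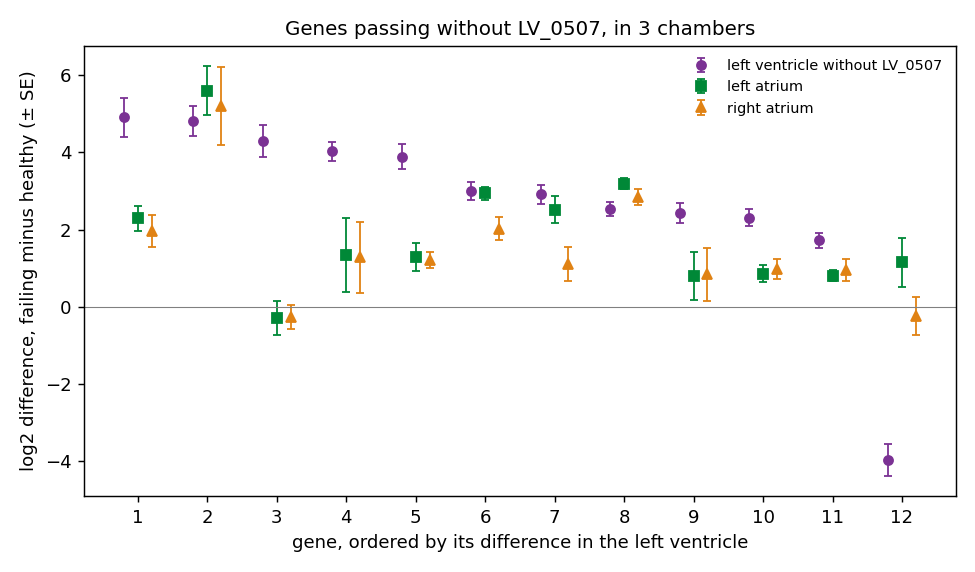
Log2 difference, failing minus healthy, with its standard error (vertical axis) of the 12 genes that passed in the left ventricle without LV_0507 (horizontal axis, ordered by that difference), in the left ventricle without LV_0507, the left atrium and the right atrium. The third gene has 4.30 in the left ventricle and -0.29 and -0.26 in the atria.

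Whether the health effect of the left ventricle differed from that of an atrium was tested as a difference of differences with edgeR. With the left atrium, 17 of 14925 genes passed (0.114%), 12 with a higher (0.0804%) and 5 with a lower (0.0335%) effect in the ventricle. In the left atrium alone 16 of the 17 passed, 10 as lower and 6 as higher in failing hearts, where 48.2% of all genes passed. The same atrial values entered the test that chose these genes, so this count is a description. In the ventricle 9 of the 16 genes tested there had differences under 2-fold in size. With the right atrium 7 of 14759 genes passed (0.0474%), 4 with a higher (0.0271%) and 3 with a lower effect in the ventricle (0.0203%). Without LV_0507 37 genes passed against the left atrium (0.248%), 24 with a higher (0.161%) and 13 with a lower (0.0872%) effect. Against the right atrium 16 passed (0.108%), 11 with a higher (0.0744%) and 5 with a lower (0.0338%) effect. The counts of 17 and 7, from fits with LV_0507, were both 0 without either healthy left ventricle. The 17 against the left atrium also became 0 without LA_0506 or any 1 healthy left atrium, and the 7 against the right atrium became 0 without RA_0507 or RA_0921. Libraries of the same code entered these fits as independent. The code as a replicate block lowered the 17 to 1 and the 7 to 0. Other alternatives, given with the processing, moved both counts up or down.

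A single gene passed against both atria in the fits without the code as a block. It was also among the 11, the third in the plot of these genes, and had 12, 9.12, 9.8 and 18.4 CPM in LV_0409, LV_0506, LV_0507 and LV_0508, against 0.633 and 0.702 CPM in LV_1001 and LV_1002. Every failing library lay far above both healthy ones. Its log2 difference in the left ventricle was 4.2 (SE 0.44, edgeR adjusted p = 0.13). The atria had differences of -0.29 (SE 0.43, left) and -0.26 (SE 0.31, right). The ventricular effect exceeded that of the left atrium by 4.53 (SE 0.73, edgeR adjusted p = 0.041) and that of the right atrium by 4.48 (SE 0.59, edgeR adjusted p = 0.023). ENSRNOG00000011094 also passed against the right atrium, by 2.85 (SE 0.41, edgeR adjusted p = 0.027), and had 2.75 against the left (SE 0.58, edgeR adjusted p = 0.12). For ENSRNOG00000013744 the effects differed by -0.51 (SE 0.27, edgeR adjusted p = 0.77) from the left and -0.16 (SE 0.32, edgeR adjusted p = 0.95) from the right atrium.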

How the data were processed

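Per the submitters' processing notes, Trimmomatic 0.39 and kallisto 0.48.0 were among the tools used. The sources used here name no build, annotation or gene summary tool. The authors deposited estimated counts and TPM per gene. Over 13474 genes the log of their ratio split exactly into 1 value per gene and 1 per library. Counts and TPM thus differed by 1 fixed length factor per gene in every library, which served as relative length. Length itself was not taken out of the counts. Transcript tables were not used.

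Estimated counts were rounded, filtered with filterByExpr (count minimum 10, total minimum 15) and scaled by TMM. Failing minus healthy was tested by edgeR (4.0.16, R 4.3.3) with a robust quasi-likelihood fit, Benjamini-Hochberg adjustment, a threshold of 0.05 and standard errors from the test statistic. Log2 CPM had a prior count of 2. Alternatives used DESeq2 1.42.0, limma 3.58.1 on log2(TPM + 1) and log2(TPM + 0.1), other scalings and filters, 1 fit of all libraries, each library left out, the code as a replicate block, and, chosen after seeing the data, removal of a length trend (loess span 0.3). Scripts were tested on simulated counts.

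The comparison, lists and naming rule were chosen with earlier results of these data known. The rule names the genes with the smallest p that do not overlap between groups, and those passing without LV_0507, at most 2 IDs per direction where names are lacking. The symbol lists and cell type markers were not applied, since no ID had a name. Intervals and p-values cover the spread between libraries only.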

Additional observations from a re-analysis of the deposited data

Results flagged for a closer look

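Among the failing left ventricles, 1 of the values taken per library put a sample far from the others: LV_0507 had 46 genes listed at 0 that had at least 1 TPM in all 5 other libraries, and the gap to the next failing library was 0.913 of the whole range. Its mean distance to the other failing libraries had a gap of 0.768, which does not exceed Dixon's critical value for 4 samples. About 1 in 20 groups of normally distributed values exceeds that value by chance. Several values were checked in this way and the flagged one is a count of genes, so that share does not give the chance of this flag.

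The health effect differed between chambers for 17 genes against the left atrium and 7 against the right. The gene that passed against both had effects higher in the left ventricle by 4.53 and 4.48 on the log2 scale. ENSRNOG00000011094 had an effect higher by 2.85 than in the right atrium. These calls depend on the alternatives given with the processing, the codes as a block among them. The part of gene length in them was not tested.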

How the results depend on the processing

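The count of 0 genes in the 6 left ventricles held in edgeR with DESeq2 size factors, without the filter on low counts and without the 10 most abundant genes, with limma on TMM-scaled log2(TPM + 1) and on log2 CPM, and without any library except LV_0507 (range 0 to 12). It became 356 with DESeq2, 6 with limma on log2(TPM + 1) (1 higher, 5 lower), 1 on log2(TPM + 0.1), 3009 in 1 fit of all 38 libraries and 7 with the length trend removed. On unscaled log2(TPM + 1) the median of all genes was -0.26, against 0.03 with TMM counts. Without LV_0507 the count of 12 was 12 with DESeq2 size factors in edgeR, 707 with DESeq2, 108 without the filter, 271 with limma on log2(TPM + 1) (173 higher, 98 lower), 21 after TMM scaling (15 higher, 6 lower), 2041 in the fit of 37 libraries (1150 higher, 891 lower), 27 with limma on log2 CPM and 47 with the length trend removed. Leaving out another library as well gave 0 (either healthy one) to 115 (LV_0409), with 22 without LV_0506 and 36 without LV_0508. The lone healthy library is then assumed to vary like the failing ones. The cause of these changes was not tested. ENSRNOG00000011094, ENSRNOG00000013744 and ENSRNOG00000012458 kept their sign in 16 alternatives and passed in 4, ENSRNOG00000014232 in 2 of 16.

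The count against the left atrium (17) was 70 in the fit of all libraries, 184 with DESeq2 and 16 without the filter, and 0 to 37 with a library left out. It was 0 without any 1 healthy library of either chamber or LA_0506, 1 without LV_0506, 3 without LA_0508 and 8 without LA_0507. The count against the right atrium (7) was 23, 95 and 7 in these alternatives, and 0 to 16 with a library left out. It was 0 without RA_0507, RA_0921 or either healthy ventricle, 1 without RA_1001, 2 without LV_0508, 3 without RA_0409 and 4 without RA_0508, RA_0920 or RA_1002. The codes were checked as pairs through the correlation of deviations from group means, which was above 0 in every pair and exceeded 0.1 in 4 of 6 pairs with the left atrium (0.067 to 0.345) and 5 of 6 with the right (0.097 to 0.319). Of the 4 failing ventricles, 3 correlated best with their own code in the left atrium and 4 in the right, a hint from the data that codes pair libraries. The labels do not say so and not every pair exceeded 0.1, so the block stayed an alternative. With the code as a replicate block the counts were 1 against the left atrium and 0 against the right. The 1 gene had a lower effect in the ventricle, whereas the gene that passed against both atria had a higher effect there in the main fits. The right atrium calls of that gene and of ENSRNOG00000011094 were not made with the block.

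Without LV_0507 the difference between failing and healthy libraries was -0.217 instead of 6.1 percentage points in the share of the 10 most abundant genes, and -0.134 instead of -0.181 in the length slope. With 2 healthy libraries, single-value tests could not pass the threshold. Counts of genes outside the healthy range changed by less than 1.5 times with DESeq2 size factors. On unscaled log2(TPM + 1) they moved by more in 7 of the 8 counts.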
